A study of Mus musculus with 18 samples.

Results

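Lysyl oxidases and the enzymes that mature collagen were followed as a set of 10 genes named by symbol, whatever their measured values. All 10 were found among the 30072 genes of the deposited tables and all 10 passed the filter on low counts (at least 0.23 CPM, the count of a gene scaled to a common library size, in at least 6 mice), as did 15054 genes in all. The set holds 4 cross-linking enzymes (Lox, Loxl1, Loxl2, Loxl3), 2 lysyl hydroxylases (Plod1, Plod2), 2 catalytic subunits of the collagen prolyl hydroxylase (P4ha1, P4ha2), the collagen chaperone Serpinh1 and the procollagen C-proteinase Bmp1. RNA came from heart tissue, labelled as the septum between the ventricles, of 18 CD-1 mice, male and female and at least 8 weeks old, with 6 mice in each of 3 groups. By the labels controls had anesthesia and no irradiation, and the other groups were sampled at 2 weeks and at 6 weeks after one dose of 25 Gy to the heart (post-IR). The labels describe a mixed genetic background for all groups, where the study's methods describe these mice as outbred wild type, and those methods treat the samples as biologically independent. Which mice were male or female is not stated sample by sample. The study's methods name ventricular tissue, an X-ray source and CT imaging of the controls, where the labels name the septum and gamma rays and no imaging, and the comparisons ask which genes change after a dose of the kind used against ventricular arrhythmia.

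Collagen chains are hydroxylated on prolines and lysines in the endoplasmic reticulum, fold there with the help of chaperones, and are trimmed at their ends outside the cell. Lysyl oxidases then oxidise lysines in collagen and elastin, so that neighbouring molecules cross-link and the matrix becomes stiffer and harder to degrade. In the heart these enzymes come mainly from fibroblasts, smooth muscle and endothelium, and they are known for their rise in fibrotic remodeling.

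One control stood apart for these genes and is therefore described first. Lox, the founding cross-linking enzyme, was at 53.5 CPM in control mouse 4 and between 2.47 and 6.50 CPM in the other 5 controls, 13.6 times their mean. The same mouse had the highest value of all 18 for Loxl1 (99.4 CPM), Loxl3 (14.8 CPM) and Plod2 (38.3 CPM), and the highest control value for Loxl2 and Bmp1. Plod1, P4ha1, P4ha2 and Serpinh1 were not raised in it: its ratio to the mean of the other controls lay between 0.881 and 1.14. Transcripts of the collagens Col1a1, Col1a2, Col3a1 and Col5a2 were at 3.60 to 4.27 times the mean of the other controls and above every irradiated mouse. Its summed fibroblast markers (1379 TPM, a length-corrected share of all transcripts, against 806 to 1182 TPM in the other controls) and valve and cartilage markers (40.2 against 7.04 to 32.3 TPM) were the highest of the 18 mice, and its summed ventricular myocyte markers (25502 against 29459 to 36652 TPM) were the lowest. Summed macrophage markers (103 against 36.6 to 64.5 TPM) and atrial myocyte markers (2499 against 337 to 1197 TPM) were above the other controls as well. Their part in the results was not tested, and in bulk RNA more cells of a type and more RNA per cell cannot be told apart. Over all genes tested, this mouse lay far from the other controls for 256 genes, where each of the others did so for 107 to 171. It was kept as a control, and each result that turns on it is given with and without it. Because its own values for these genes prompted that choice, the values without it are a description of the other 17 mice.

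**Figure D1:**
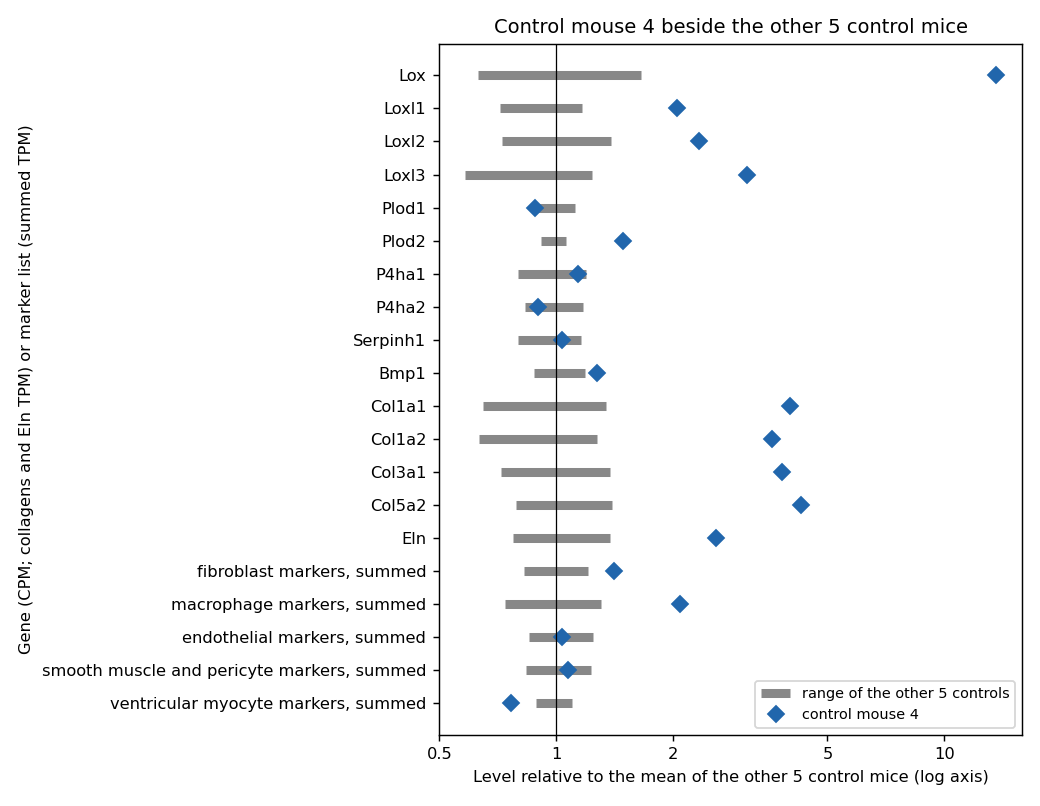
Level of each gene or summed marker list in control mouse 4 (diamonds) relative to the mean of the other 5 control mice, with their range as grey bars, on a log axis. Lox lay at 13.6 times that mean, the collagens at 3.60 to 4.27 times it, Serpinh1 within the range, and the ventricular myocyte markers below it.

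With all 18 mice, none of the 10 genes passed the test at 2 weeks and 3 rose at 6 weeks: Loxl2, Serpinh1 and P4ha1. At 2 weeks 5.02% of all genes tested passed an adjusted P of 0.05 in edgeR's quasi-likelihood test with Benjamini-Hochberg adjustment (3.09% higher). At an unadjusted P under 0.05 there were 2 of the 10, Serpinh1 and Bmp1, beside 20.4% of all genes. At 6 weeks 25% of all genes passed the adjusted test (13.5% higher), against 3 of the 10, all of them higher. With a further limit of 1 on the absolute log2 fold change, 0 of the 10 remained at either time, beside 0.903% and 5.95% of all genes. In 0 of the 10 were the irradiated mice free of overlap with the controls, as was so for 3.24% of all genes at 2 weeks and 9.23% at 6 weeks. The median log2 fold change of the 10 was 0.18 at 2 weeks and 0.18 at 6 weeks, beside -0.00 and -0.02 over all genes tested, and 7 and 9 of the 10 were above 0 (49.7% and 47.3% of all genes).

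Without control mouse 4 the counts were larger. That mouse was the highest control for Lox, Loxl1, Loxl2, Loxl3, Plod2 and Bmp1, so leaving it out lowers the control mean of these genes. The shares over all genes were not chosen in this way, so the counts here describe 17 mice and are not a further test. At 2 weeks 3 of the 10 were higher (Loxl1, Loxl2 and Bmp1) beside 5.75% of all genes called (3.77% higher). At 6 weeks 7 of the 10 were higher, namely the 4 cross-linking enzymes, P4ha1, Serpinh1 and Bmp1, beside 26.2% of all genes called (14.2% higher), and each still overlapped the controls (12.8% of all genes did not). The median log2 fold change of the 10 was then 0.39 and 0.42. Plod1, Plod2 and P4ha2 did not pass the test at either time in either fit. These values rest on TMM factors, a scaling that trims extreme genes. Scaling by total counts alone shifted the median of all genes by 0.15 at 2 weeks and 0.24 at 6 weeks, turned the share of calls that were higher from 61.6% to 95.4% and from 54.0% to 94.4%, and called 2 and 7 of the 10 higher.

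**Figure D2:**
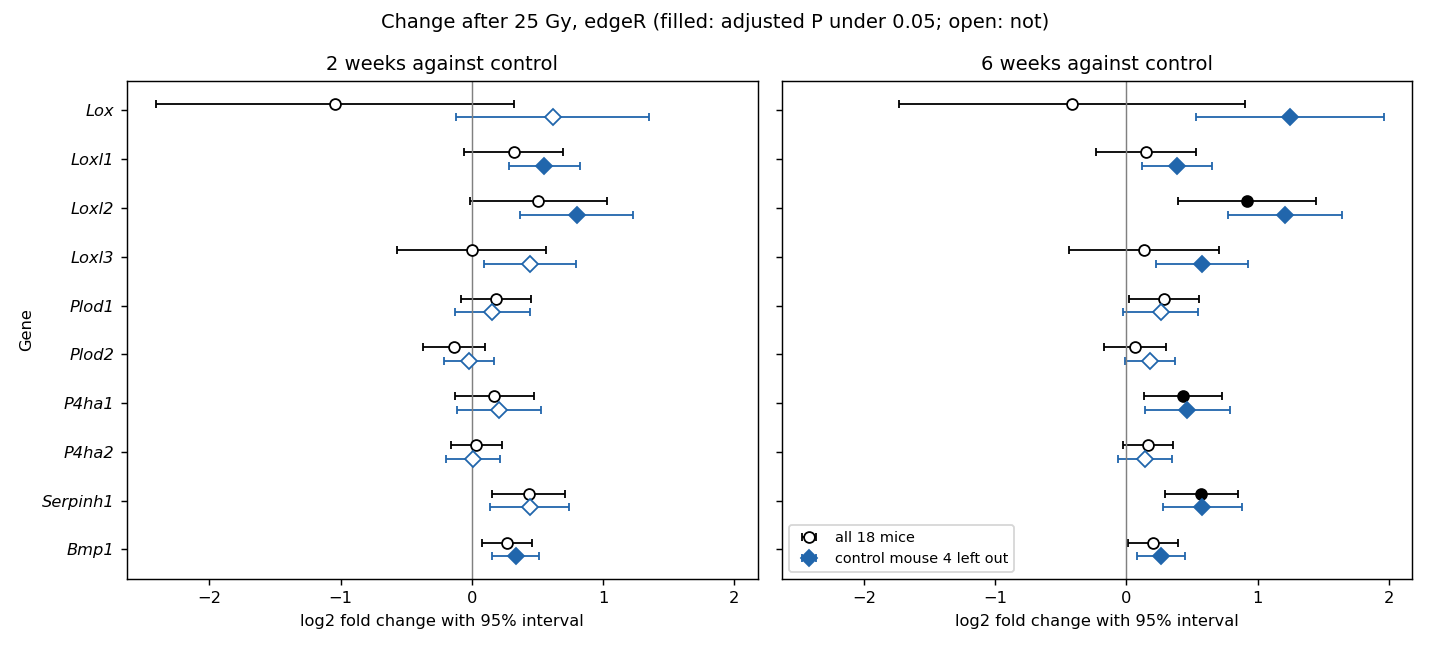
Log2 fold change of the 10 genes against controls at 2 weeks (left) and 6 weeks (right), with 95% intervals from edgeR, for all 18 mice (black circles) and without control mouse 4 (blue diamonds). Filled symbols passed an adjusted P of 0.05: 3 genes at 6 weeks with all mice, and 3 at 2 weeks and 7 at 6 weeks without that mouse.

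Lox (ENSMUSG00000024529, chr18:52516067-52529867, minus strand, GRCm38) acts on fibrillar collagen and elastin. It ran from 2.47 to 53.5 CPM in controls (median 3.69), from 4.01 to 10.3 CPM at 2 weeks (median 5.30) and from 5.90 to 16.6 CPM at 6 weeks (median 7.04). The medians were ordered control, 2 weeks, 6 weeks, while the control mean (12.2 ± 20.3 CPM, SD, n = 6) was above both irradiated means (5.99 ± 2.29 and 9.37 ± 4.57 CPM), so that the place of the controls in the order depended on the use of mean or median. The log2 fold change was -1.04 at 2 weeks (95% interval -2.41 to 0.32, adjusted P = 0.382) and -0.42 at 6 weeks (-1.73 to 0.90, adjusted P = 0.682). Without control mouse 4 both signs turned, to 0.62 at 2 weeks (95% interval -0.12 to 1.35, adjusted P = 0.321) and to 1.24 at 6 weeks (0.53 to 1.96, adjusted P = 0.0103). Control mouse 5, at 6.50 CPM, was the only other control above the lowest 6-week mouse. Lox shares its locus with an antisense gene, AC161119.1, and whether strand was used in counting is not given in the sources used here.

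Loxl2 (ENSMUSG00000034205, chr14:69609068-69695834, plus strand), which cross-links basement membrane and fibrillar collagens, was the member with the largest rise when all 18 mice were used. Without control mouse 4 the log2 value at 6 weeks was 1.24 for Lox and 1.21 for Loxl2. Controls ran from 30.3 to 97.6 CPM (median 43.1), mice at 2 weeks from 64.4 to 89.3 CPM (median 71.2) and mice at 6 weeks from 57.2 to 141 CPM (median 88.4). All 12 irradiated mice but 1 were above the 5 other controls, the highest of which was at 57.9 CPM. The level at 6 weeks was 1.89-fold that of controls (log2 0.92, SE 0.246, adjusted P = 0.00981), and it was 1.21 (SE 0.203, adjusted P = 0.000305) without control mouse 4. At 2 weeks it was 0.51 (95% interval -0.02 to 1.03, adjusted P = 0.254) with all mice and 0.80 (adjusted P = 0.028) without that mouse, when the groups no longer overlapped, as was so for 5.1% of all genes. Genes on the other strand, Gm27177 and Gm37513, overlap this locus.

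Loxl1 (ENSMUSG00000032334, chr9:58287738-58313186, minus strand), the family member most closely tied to elastic fibers, ran from 34.7 to 99.4 CPM in controls (median 54.2), from 59.1 to 83.6 CPM at 2 weeks (median 70.9) and from 54.0 to 73.2 CPM at 6 weeks (median 63.0). The groups overlapped only through control mouse 4 at 2 weeks, and through the upper controls also at 6 weeks. Against controls the log2 difference was 0.32 at 2 weeks (95% interval -0.06 to 0.70, adjusted P = 0.331) and 0.15 at 6 weeks (-0.23 to 0.53, adjusted P = 0.589), and without that mouse 0.55 (adjusted P = 0.0156) and 0.38 (adjusted P = 0.0308). Loxl3 (ENSMUSG00000000693, chr6:83034173-83052562, plus strand) , a further cross-linking paralog, ran from 2.78 to 14.8 CPM in controls (median 5.45), from 5.53 to 8.09 CPM at 2 weeks (median 6.34) and from 5.86 to 8.73 CPM at 6 weeks (median 7.12). Control mouse 4 was above every irradiated mouse, and the next control, at 5.90 CPM, reached into the lower end of both irradiated groups. Its log2 fold change was -0.00 at 2 weeks and 0.13 at 6 weeks (adjusted P = 0.998 and 0.768), and 0.44 and 0.58 without control mouse 4 (adjusted P = 0.124 and 0.0136). Loxl3 overlaps the coding gene Htra2 on the other strand, so its reads may be shared with it. In 6-week mouse 4 Loxl3 had the highest TPM of its group (6.26) and the lowest CPM (5.86), so the order of mice within a group depended on the unit for this gene.

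**Figure D3:**
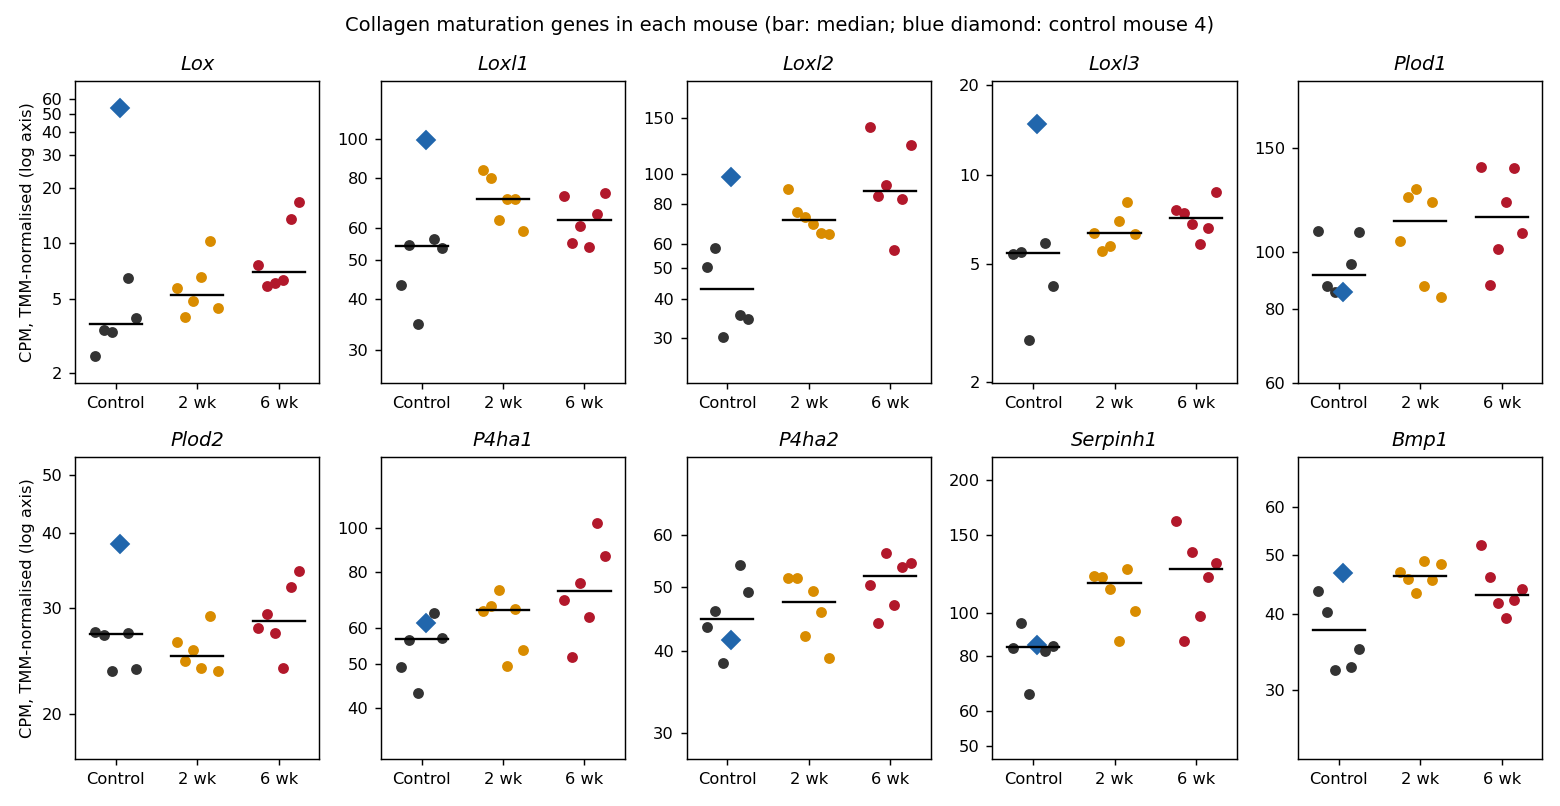
TMM-normalised CPM of the 10 genes in each mouse on log axes, with the median of each group as a bar and control mouse 4 as a blue diamond. Serpinh1 and P4ha1 reach their highest values at 6 weeks with control mouse 4 among the other controls, whereas for Lox, Loxl1, Loxl3 and Plod2 that control is the highest of the 18 mice.

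The lysyl hydroxylases prepare the residues on which cross-links form, Plod1 mainly within the helix and Plod2 at the chain ends. Plod1 (ENSMUSG00000019055, chr4:147909753-147936767, minus strand) ran from 85.4 to 108 CPM in controls (median 91.4), from 83.8 to 128 CPM at 2 weeks (median 113) and from 87.9 to 140 CPM at 6 weeks (median 115). Plod2 (ENSMUSG00000032374, chr9:92542223-92608428, plus strand) ran from 23.6 to 38.3 CPM in controls (median 27.1), from 23.5 to 29.0 CPM at 2 weeks (median 25.0) and from 23.9 to 34.6 CPM at 6 weeks (median 28.6). For both genes the lowest mouse of each irradiated group lay within or below the control range. Plod1 had log2 fold changes of 0.19 (adjusted P = 0.428) and 0.29 (95% interval 0.02 to 0.56, adjusted P = 0.103). It passed the test at 6 weeks when 6-week mouse 2 was left out (0.36, adjusted P = 0.0403) and with scaling by library size alone (0.55, adjusted P = 0.00214). Plod2 had -0.13 (-0.37 to 0.10, adjusted P = 0.533) and 0.07 (-0.17 to 0.30, adjusted P = 0.716), and its sign at 2 weeks turned with scaling by library size alone (0.01).

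P4ha1 and P4ha2 carry the active site of the prolyl hydroxylase that makes the collagen helix stable at body temperature. P4ha1 (ENSMUSG00000019916, chr10:59323296-59373304, plus strand) ran from 43.3 to 64.7 CPM in controls (median 56.8), from 49.6 to 72.8 CPM at 2 weeks (median 65.9) and from 51.8 to 102 CPM at 6 weeks (median 72.3). At 6 weeks 4 of 6 mice were above every control and 2 lay within the control range. The level at 6 weeks was 1.35-fold that of controls (log2 0.43, SE 0.140, adjusted P = 0.0306), while at 2 weeks the log2 value was 0.17 (adjusted P = 0.526). This call was lost when control mouse 1 or 3 or 6-week mouse 3, 5 or 6 was left out (adjusted P between 0.0503 and 0.0820), whereas leaving out 1 mouse cost Loxl2 and Serpinh1 no 6-week call. P4ha2 (ENSMUSG00000018906, chr11:54100095-54131665, plus strand) ran from 38.4 to 54.1 CPM in controls (median 44.8), from 39.0 to 51.8 CPM at 2 weeks (median 47.6) and from 44.1 to 56.5 CPM at 6 weeks (median 52.1), and the groups overlapped widely. Against controls it stood at log2 0.04 and 0.17 (adjusted P = 0.87 and 0.198).

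Serpinh1 (ENSMUSG00000070436, chr7:99345376-99353239, minus strand) encodes the chaperone that binds folded procollagen in the endoplasmic reticulum. It ran from 65.5 to 94.99 CPM in controls (median 83.8), from 86.3 to 126 CPM at 2 weeks (median 117) and from 86.7 to 161 CPM at 6 weeks (median 126). In each irradiated group 5 of 6 mice were above every control, and the remaining mouse (mouse 4 at 2 weeks, mouse 2 at 6 weeks) was within the control range. The level at 6 weeks was 1.49-fold that of controls (log2 0.57, SE 0.130, adjusted P = 0.00328), and the log2 value was 0.58 without control mouse 4, whose Serpinh1 level of 84.7 CPM was ordinary for a control. At 2 weeks it was 0.43 (SE 0.130, unadjusted P = 0.00349, adjusted P = 0.0596), a call that was missed with all mice and made when 2-week mouse 4, 6-week mouse 1 or 6-week mouse 2 was left out (adjusted P between 0.0328 and 0.041).

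Bmp1 (ENSMUSG00000022098, chr14:70474558-70520234, minus strand) encodes the protease that removes the C-terminal propeptide of fibrillar procollagen and also releases active lysyl oxidase from its precursor. It ran from 32.3 to 46.8 CPM in controls (median 37.6), from 43.3 to 48.9 CPM at 2 weeks (median 46.3) and from 39.4 to 51.9 CPM at 6 weeks (median 43.1). The 2-week mice lay at the top of the control range and close together. Relative to controls the log2 value was 0.27 at 2 weeks (95% interval 0.08 to 0.46, unadjusted P = 0.007, adjusted P = 0.087) and 0.20 at 6 weeks (adjusted P = 0.113), and without control mouse 4 it was 0.33 (adjusted P = 0.0279) and 0.26 (adjusted P = 0.0273).

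Promoters of P4ha1, P4ha2 and Serpinh1, which act inside the cell, are shown. They were chosen because P4ha1 and Serpinh1 rose at 6 weeks while P4ha2, which shares the function of P4ha1, did not pass the test. The Plod1 promoter was also searched but is not printed. Promoter sequences of 4 of the 10 genes were at hand from RefSeq (GRCm38.p6), as the 250 bases before the RefSeq start of transcription on the gene's own strand, 5′ to 3′. Capitals mark the hypoxia response core (ACGTG or GCGTG, on either strand), which overlaps the E-box CACGTG in its first form, and the heat shock element (GAANNTTC or TTCNNGAA). The windows are chr10:59323046-59323295 (plus) for P4ha1, chr11:54100674-54100923 (plus) for P4ha2 and chr7:99353240-99353489 (minus) for Serpinh1. The P4ha2 window lies inside the gene span given above, which begins at 54100095, so it precedes a later RefSeq start. The P4ha1 and Serpinh1 windows end just before their gene spans.
P4ha1: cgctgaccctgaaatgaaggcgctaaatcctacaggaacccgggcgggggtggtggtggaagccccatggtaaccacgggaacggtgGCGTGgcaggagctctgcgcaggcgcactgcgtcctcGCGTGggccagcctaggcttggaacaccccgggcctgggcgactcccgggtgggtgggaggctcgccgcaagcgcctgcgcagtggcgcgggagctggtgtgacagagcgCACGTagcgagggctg
P4ha2: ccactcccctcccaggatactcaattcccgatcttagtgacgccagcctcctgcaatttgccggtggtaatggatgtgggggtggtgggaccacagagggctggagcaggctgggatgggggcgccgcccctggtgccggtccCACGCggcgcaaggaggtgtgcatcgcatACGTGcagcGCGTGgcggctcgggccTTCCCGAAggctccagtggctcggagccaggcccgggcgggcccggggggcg
Serpinh1: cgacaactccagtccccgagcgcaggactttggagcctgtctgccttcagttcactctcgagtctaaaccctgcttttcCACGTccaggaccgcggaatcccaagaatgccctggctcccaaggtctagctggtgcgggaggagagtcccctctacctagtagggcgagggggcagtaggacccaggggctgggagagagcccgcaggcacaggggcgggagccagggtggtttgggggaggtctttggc
P4ha1 held 3 hypoxia response cores, at 163, 126 and 16 bases before the start, and P4ha2 also held 3, at 107, 78 and 69 bases, with 1 heat shock element at 52 bases. Serpinh1 held 1 core at 171 bases and no heat shock element in this window, and Plod1 held 1 core at 20 bases. Of 32851 promoters of the same length, 38.6% held at least 1 core, 6.58% held 3 or more, and 12.8% held a heat shock element. P4ha1 and P4ha2 held the same number of cores. Their ratio at 6 weeks did not pass the test against controls (exact permutation test, adjusted P = 0.675), so a difference in response between them was not established. The part of these letters in the changes was not tested, and a match of letters is not a measured binding site.

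Between 2 and 6 weeks none of the 10 genes passed the test, where 5.33% of all genes did (6.63% without control mouse 4, again with 0 of the 10), and the groups of no member were free of overlap (3.54% of all genes). Lox had the largest difference, 0.63 (95% interval -0.76 to 2.02), followed by Loxl2 (0.41, adjusted P = 0.352) and P4ha1 (0.26, adjusted P = 0.304). Plod2 was at 0.20 (unadjusted P = 0.0864), while Loxl1 had -0.17 and Bmp1 -0.07, the latter turning to 0.04 with scaling by library size alone. At an unadjusted P under 0.05 there was 0 of the 10 beside 21.3% of all genes, and 0 at an adjusted P under 0.05 by DESeq2. The 2 comparisons with controls share the same 6 control mice, so the rises at 2 and at 6 weeks are not independent of each other.

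Compared per transcript length, in TPM, Serpinh1, P4ha2, Plod1 and P4ha1 were the more abundant members. In controls the mean was 34.0 ± 5.24 TPM for Serpinh1 (SD, n = 6), 29.6 ± 4.89 TPM for P4ha2, 28.5 ± 4.98 TPM for Plod1 and 18.4 ± 2.704 TPM for P4ha1. Loxl1 (13.9 ± 6.47), Plod2 (10.3 ± 2.88), Loxl2 (9.63 ± 5.20) and Bmp1 (9.18 ± 2.24 TPM) followed, and Lox (3.22 ± 5.56) and Loxl3 (2.34 ± 1.87 TPM) were last. Only Plod1 and P4ha1 were neighbours in this order whose control ranges did not overlap. By medians Lox (0.852 TPM) was below Loxl3 (1.76 TPM). The 4 most abundant members were the same in each group, and Serpinh1 led in all, with 53.7 ± 7.51 TPM at 2 weeks and 66.6 ± 17.4 TPM at 6 weeks. Loxl2 held rank 7 in controls, 6 at 2 weeks and 5 at 6 weeks, and at both times after irradiation it overlapped its neighbour Loxl1. TPM was shifted upward after irradiation for genes in general, by a median of 0.29 on the log2(TPM + 1) scale at 6 weeks, so it is used here for the order of genes within a group.

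**Figure D4:**
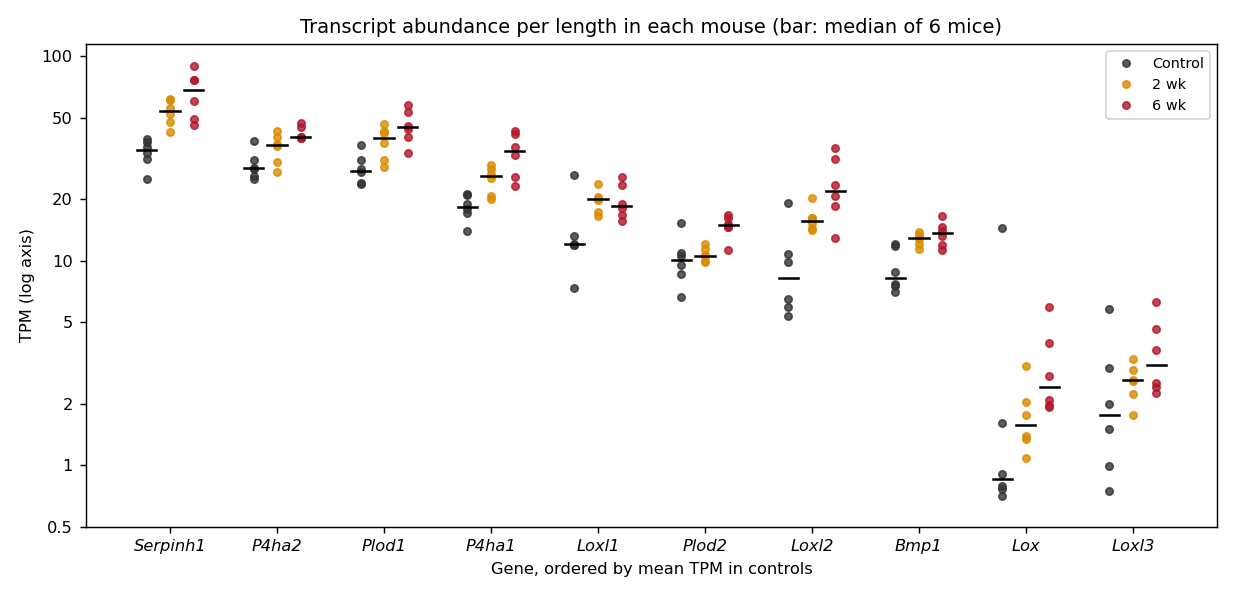
Abundance per length (TPM, log axis) of the 10 genes in each mouse, ordered by the mean in controls, with group medians as bars. Serpinh1 is the most abundant member in each group, and Lox and Loxl3 are the least abundant.

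Ratios between paralogs and between enzyme and substrate were compared within each mouse, since they do not depend on scaling between mice. None of 24 comparisons (8 ratios at 3 pairs of groups) passed an adjusted P of 0.05 by the two-sided exact permutation test, whose smallest possible P at this size is 0.00216. The smallest unadjusted P was 0.0238, for Loxl1 over Lox, which was lower at 6 than at 2 weeks (log2 ratio 2.78 ± 0.49 against 3.54 ± 0.49, SD, exact permutation test, adjusted P = 0.571), and it was the only one of the 24 under 0.05. In controls Loxl1 over Lox ran from 1.81 in control mouse 4 to 16.97, with a median of 11.4. P4ha2 over P4ha1 had medians of 1.65, 1.42 and 1.27 in controls, at 2 weeks and at 6 weeks, with overlapping ranges (6 weeks against controls, exact permutation P = 0.0628, adjusted P = 0.675). Plod2 over Plod1 had medians of 0.368, 0.293 and 0.325. Serpinh1 over Col1a1 was 0.256 in control mouse 4 and had medians of 0.836, 0.775 and 0.897. Without control mouse 4 none of the 24 passed either (smallest adjusted P = 0.234), and 4 were under 0.05 unadjusted, among them Serpinh1 over Col1a1 at 2 weeks, whose log2 difference turned from 0.04 to -0.27 (exact permutation P = 0.0303).

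Members varied together within groups to different degrees. Over the 45 pairs, Pearson's r of log2 CPM after removal of group means had a median of 0.47 over 18 mice and 0.44 over 17, and 39 and 40 pairs were positive. With control mouse 4 included the leading pairs were Lox and Plod2 (r = 0.84), Loxl1 and Loxl3 (0.84), Lox and Loxl3 (0.84), Loxl3 and Plod2 (0.83) and Loxl2 and Bmp1 (0.83), which stood at 0.66, 0.59, 0.45, 0.64 and 0.75 without it. Loxl1 and P4ha2 went the other way, from 0.39 to 0.85. These values describe mice that share libraries and depth across genes. Plod2 and Loxl3 ran against the ventricular myocyte markers (r = -0.86 and -0.84, and -0.72 and -0.66 without control mouse 4), and Plod1 and P4ha2 did not (0.11 and 0.19, then -0.02 and 0.07). The part of tissue composition in these values was not tested.

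For each member the gene outside the lists that followed it most closely over the 18 mice was recorded with the same measure. Loxl2 was most like Tnc, a matrix glycoprotein (r = 0.94, and 0.90 without control mouse 4), Loxl1 was most like Ncf4 (0.95 and 0.88), Loxl3 like Ptprj (0.95 and 0.89) and Lox like Fhl1 (0.92 and 0.61). Plod2 was most like Actr2 (0.91 and 0.82), Plod1 like Tnfrsf1b (0.90 and 0.90), P4ha1 like Dynll1 (0.90 and 0.92), Bmp1 like Ptpra (0.90 and 0.88), Serpinh1 like Tuba1a (0.84 and 0.84) and P4ha2 like Bcl6 (0.84 and 0.84). The value for Lox rested in large part on control mouse 4.

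Of 24 other genes of collagen maturation 23 were tested, P4ha3 being too low, and at 6 weeks 7 were higher and 3 lower, where 13.5% of all genes were higher and 11.5% lower. At 2 weeks 1 was higher, Pcolce, an enhancer of the C-proteinase (0.45, adjusted P = 0.0427; this gene lies outside the naming rule and was chosen after its values were seen). Sparc, a collagen-binding matricellular protein, rose from 336 ± 88.5 CPM in controls to 797 ± 136 CPM at 6 weeks (log2 1.25, adjusted P = 1.01e-05). Plod3, the third lysyl hydroxylase, rose by 0.40 (adjusted P = 0.000948), beside the 0.29 of Plod1 and 0.07 of Plod2. Loxl4, the remaining lysyl oxidase, rose by 0.89 (adjusted P = 0.00815) from a low level of 1.54 ± 0.664 CPM in controls. Adamts3, an N-proteinase of procollagen, fell by 0.62 on the log2 scale (adjusted P = 0.0092), a call lost with scaling by library size alone (adjusted P = 0.0675). The median over the 23 was 0.25 at 6 weeks, and without control mouse 4 the counts were 11 higher and 3 lower (14.2% and 12% of all genes).

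The counts of substrates that changed also depended on control mouse 4. Of 10 collagens, elastin and fiber partners, 0 were called at 2 weeks and 2 at 6 weeks with all mice, both higher. Of all genes 5.02% and 25% were called (3.09% and 13.5% higher). Without that mouse 7 and 7 were called, all higher, beside 5.75% and 26.2% of all genes (3.77% and 14.2% higher). Fn1 (fibronectin) rose 6 weeks post-IR by log2 1.54 (SE 0.275, adjusted P = 0.000478), while Efemp2, which links lysyl oxidase to elastic fibers, rose by 0.62 (adjusted P = 0.0105). Fbn1 had 0.53 and Col5a2 0.50 (adjusted P = 0.176 and 0.268), and without control mouse 4 0.92 and 1.07 (adjusted P = 0.00285 and 0.000202).

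Of 12 hypoxia-inducible genes, 0 were called at 2 weeks and 3 were higher at 6 weeks, beside 25% of all genes called then (13.5% higher). Their median log2 value was 0.13. Ankrd37 rose by 0.85 (adjusted P = 0.000713), Adm (adrenomedullin) by 0.94 (adjusted P = 0.00132) and Slc2a1, the glucose transporter, by 0.47 (adjusted P = 0.00196), while Ldha had 0.20 (adjusted P = 0.112). Ldha and the 8 others did not pass the test. Of 7 genes of the response to TGF-beta, 0 were called at 2 weeks and 3 were higher at 6 weeks, beside the same 13.5% of all genes, with a median of 0.46. Thbs1 (thrombospondin) rose by 2.05 (SE 0.390, adjusted P = 0.000802), Skil by 0.50 (adjusted P = 0.00633) and Smad7 by 0.46 (adjusted P = 0.0121). Postn (periostin) had 0.76 (adjusted P = 0.292) with all mice and 1.79 (adjusted P = 0.000388) without control mouse 4, when 4 of the 7 were higher. With all mice and sample quality weights in limma voom, Postn (1.41, adjusted P = 0.0161), Col5a2 (0.81, adjusted P = 0.0239) and Fbn1 (0.73, adjusted P = 0.0376) passed the test.

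Cell markers moved with irradiation beside these genes. At 6 weeks 5 of 6 macrophage markers were higher, with summed levels of 122 to 197 TPM against 36.6 to 103 TPM in controls, and 7 of 8 ventricular myocyte markers were lower in CPM. The summed TPM of the ventricular myocyte markers (29341 to 31869) nevertheless lay within the control range (25502 to 36652). Without control mouse 4 that range was 29459 to 36652, and the 6-week mice lay close to its lower end. Of 8 fibroblast markers 0 were higher and 2 lower, with summed levels of 734 to 1326 TPM against 806 to 1379 TPM. Endothelial markers (2 higher and 1 lower of 6) summed to 503 to 738 TPM against 322 to 471 TPM, and smooth muscle and pericyte markers (1 higher of 8) to 245 to 322 TPM against 170 to 251 TPM. TPM was shifted upward after irradiation for genes in general, so these sums alone do not show a rise. On TMM-scaled counts the median log2 fold change at 6 weeks was 0.12 for endothelial and -0.03 for smooth muscle and pericyte markers. It was 1.01 for macrophage, 1.25 for lymphocyte, 0.47 for mesothelial, -0.33 for fibroblast and -0.45 for ventricular myocyte markers. Lymphocyte markers summed to 1.80 to 3.52 TPM against 0.467 to 1.76 TPM in controls, without overlap, and 1 of 4 tested was called higher. Mesothelial markers summed to 6.44 to 10.4 TPM against 2.998 to 8.18 TPM in controls, with 1 of 5 higher. No marker of the atrial, valve and cartilage or adipocyte lists was called at 6 weeks, and 1 of 4 erythroid markers was lower. The part of these markers in the change of Loxl2, Serpinh1 and P4ha1 was not tested.

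Total estimated counts per mouse lay between 11522987 and 15501019, so 3 counts corresponded to 0.194 to 0.26 CPM before TMM scaling. The lowest member value was 30 counts, for Loxl3 in a control, and Lox had at least 36 counts in each mouse. The median share of mitochondrially encoded transcripts was 23.2% in controls, 20.2% at 2 weeks and 17.4% at 6 weeks, and TMM factors rose from 0.844 to 0.991 in controls to 1.04 to 1.13 at 6 weeks. That limit covers counting error only.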

How the data were processed

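RNA-seq of 18 mouse hearts was used, with 6 mice per group. The authors aligned reads to GRCm38 with STAR, quantified them with Salmon and summarised transcripts to genes with tximport; the submitters' processing notes name CASAVA 1.8 and Salmon 1.0. The deposited tables hold estimated counts per gene and TPM. Whether counting used strand is not given in the sources used here. Estimated counts were rounded, filtered at 0.23 CPM in at least 6 mice and fitted over all groups with edgeR 4.0.16 (TMM scaling, quasi-likelihood test, Benjamini-Hochberg adjustment over 15054 genes) in R 4.3.3. Intervals of 95% used each standard error with 15 residual degrees of freedom. TPM served for levels and within-mouse ratios, the latter tested by exact permutation (scipy 1.17.1, Python 3.11.15). DESeq2 1.42.0 and limma 3.58.1 gave alternatives. The code was tested on simulated data. Symbols came from GENCODE M21 for 29301 of 30072 genes, and all 120 listed genes were matched.

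The members and gene lists (other collagen maturation, substrates, hypoxia, TGF-beta and cell markers) were chosen with earlier results of these data known. Genes named from each list were those past the adjusted threshold with an absolute log2 fold change above 1 in any of the comparisons. Where there were fewer than 4 of these, the 4 with the smallest adjusted P at 6 weeks against controls were named. One listed gene is not reported here. Same-numbered mice were not paired: over 18 pairs of mice the correlation of their deviations ran from -0.083 to 0.106, with 2 over 0.1. P-values set the differences between groups against the spread between these mice.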

Additional observations from a re-analysis of the deposited data

Results flagged for a closer look

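Control mouse 4 lay far from the other 5 controls in 6 of the 18 control groups examined (10 genes and 8 ratios), where chance alone marks about 1 group in 20. These measures share the same mice and are not independent. None of the 36 irradiated groups held such a mouse. The measure, set against Dixon's 95% critical value, was the gap to the nearest mouse as a share of the whole range of the group. It was 0.921 for Lox, 0.663 for Loxl1, 0.740 for Loxl3 and 0.745 for Plod2, each highest in that mouse, and 0.678 for the ratio of Loxl1 to Lox and 0.760 for the ratio of Serpinh1 to Col1a1, each lowest in it.

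The change after irradiation differed between 2 and 6 weeks for 5 of the named genes outside the set, by edgeR's quasi-likelihood test with Benjamini-Hochberg adjustment. The log2 difference of 6 against 2 weeks was 0.77 for Sparc (adjusted P = 0.00732), 0.98 for Fn1 (adjusted P = 0.0426) and 0.65 for Slc2a1 (adjusted P = 0.00221). It was 1.75 for Thbs1 (adjusted P = 0.0167) and 0.54 for Skil (adjusted P = 0.0214). None of the 10 collagen maturation genes passed this test between the times.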

How the results depend on the processing

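At 2 weeks, where 0 of the 10 genes were called, DESeq2 called 1 (Serpinh1), limma voom with sample quality weights 1 (Bmp1), library size alone 2, and limma on log2(TPM + 1), log2(TPM + 0.1) and unfiltered log2(TPM + 1) 4, 6 and 2; leaving out 1 mouse gave 0 to 3. At 6 weeks, where 3 were called, library size alone gave 7, each TPM scale 8, an added fold threshold 0, and leaving out 1 mouse 2 to 7. Without control mouse 4, DESeq2, voom and library size alone called 4, 3 and 5 at 2 weeks and 7, 7 and 10 at 6 weeks (alternatives chosen after seeing the data). Between 2 and 6 weeks the count was 0 under each alternative run. With the replicate number as a block, 0, 3 and 0 were called, and Fbn1 passed at 6 weeks (0.66, adjusted P = 0.0429). Signs turned mostly where the value was near 0 or rested on control mouse 4. Lox at 2 weeks was 0.12 with voom and 0.17 with log2(TPM + 0.1), and without control mouse 4 0.61 (DESeq2), 0.58 (voom) and 0.78 (library size); at 6 weeks it was 0.63 (voom), 0.51 and 0.89 (TPM + 1, with and without filter, and TPM + 0.1), 0.32 (block), and without control mouse 4 1.26, 1.10 and 1.52. Loxl3 at 2 weeks was 0.013 (DESeq2), 0.23 (voom), 0.14 (library size), 0.000921 (no filter), 0.25 and 0.42 (TPM + 1 and + 0.1), 0.086 (block) and 0.038 (Ddx3y covariate), and without control mouse 4 0.44, 0.45 and 0.60. Plod2 at 2 weeks was 0.011 and, without control mouse 4, 0.14 (library size), and 0.098 and 0.11 (TPM + 1 and + 0.1); Bmp1 between 2 and 6 weeks was 0.045 (library size, with and without control mouse 4), and 0.082 and 0.087 (TPM + 1 and + 0.1). With log2(TPM + 1), ratios at 6 weeks turned to 0.052 (Loxl1/Lox), 0.061 (Loxl3/Lox), -0.17 (Lox/Col1a1) and 0.0060 (Loxl1/Eln). Leaving out 1 mouse moved Lox from -1.27 to 0.62 at 2 weeks and from -0.66 to 1.24 at 6 weeks, Loxl3 from -0.14 to 0.44 and from -0.0058 to 0.58, and P4ha2 at 2 weeks from -0.0069 to 0.092. Ratios ranged at 2 weeks from -0.065 to 0.58 (Loxl1/Lox), -0.088 to 0.59 (Loxl3/Lox) and -0.27 to 0.16 (Serpinh1/Col1a1), and at 6 weeks from -0.27 to 0.013 (Plod2/Plod1), -0.024 to 0.68 (Loxl2/Lox), -0.42 to 0.26 (Loxl3/Lox), -0.050 to 0.38 (Serpinh1/Col1a1) and -0.16 to 0.069 (Loxl1/Eln). The cause of these changes was not tested.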
